A study of Mus musculus with 6 samples.

Results

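The C/EBP transcription factors measured here were the products of 5 genes, Cebpa, Cebpb, Cebpd, Cebpe and Cebpg, chosen by name from the 24421 genes of the count table, and all 5 had reads enough to be tested. RNA had been sequenced from 3 libraries of DEK-treated and 3 libraries of vehicle-treated cells, numbered 1 to 3 in each group. Every library, the vehicle libraries included, came from femoral bone marrow of C57BL/6 mice of genotype Dek -/-, depleted of lineage-positive cells on columns, so there was no group with an intact Dek gene. DEK is a chromatin-binding nuclear protein that blood cells can also release, and the treated cells received it from outside. The labels give neither the age of the mice nor the dose, the time or the source of the protein, nor whether each library had its own mouse.

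C/EBP proteins are basic leucine zipper factors. They bind DNA as pairs, with one another or with relatives such as the ATF proteins, and in bone marrow they set the path of granulocytes and monocytes. C/EBP alpha starts granulocyte formation from progenitors, C/EBP epsilon drives its last steps, and C/EBP beta and C/EBP delta are induced by cytokines and microbial products. C/EBP gamma lacks an activation domain and acts through its partners. In human myeloid cells the DEK protein has been found to bind C/EBP alpha and to act with it at the promoter of the gene for the G-CSF receptor.

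None of the 5 genes passed in the fit without pairing, and 0.0% of all 13803 genes did. Another fit compared libraries of equal number (called within pairs below), though the labels do not say what libraries of equal number share. In that fit 1 of the 5 passed, and 0.869% of all genes were called higher and 0.413% lower. That gene, Cebpd, was higher after DEK treatment in each of the 3 replicate numbers, 1.55-fold by that fit. Cebpb was higher in 2 of the 3 numbers and did not pass. Cebpa and Cebpe were lower in each of the 3 numbers, by small amounts that did not pass, and Cebpg was lower in 2 of 3 and did not pass. Of all tested genes, 16.3% were higher and 17.9% lower in each of the 3 numbers.

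Start regions were matched for 3 of the 5 members, Cebpa, Cebpb and Cebpg, and Cebpd and Cebpe were not. Those of Cebpa and Cebpb are shown because they belong to the factor of granulocyte commitment, whose mean was lower with DEK, and to an inducible member, whose mean was higher. Each runs from 250 bases before to 50 bases after the annotated start, 5′ to 3′ on the plus strand (RefSeq, GRCm38.p6). Capitals mark TTGCG, the core of the C/EBP site, TGACG, the core of the cyclic AMP response element, and TATAAA, each on either strand.
Cebpa, chr7:35119043-35119342: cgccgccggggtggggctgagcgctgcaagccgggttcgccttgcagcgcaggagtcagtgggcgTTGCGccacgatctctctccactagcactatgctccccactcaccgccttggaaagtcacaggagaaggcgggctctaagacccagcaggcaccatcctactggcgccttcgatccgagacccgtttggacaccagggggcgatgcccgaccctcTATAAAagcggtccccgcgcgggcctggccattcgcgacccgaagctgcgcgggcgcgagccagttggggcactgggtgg
Cebpb, chr2:167688665-167688964: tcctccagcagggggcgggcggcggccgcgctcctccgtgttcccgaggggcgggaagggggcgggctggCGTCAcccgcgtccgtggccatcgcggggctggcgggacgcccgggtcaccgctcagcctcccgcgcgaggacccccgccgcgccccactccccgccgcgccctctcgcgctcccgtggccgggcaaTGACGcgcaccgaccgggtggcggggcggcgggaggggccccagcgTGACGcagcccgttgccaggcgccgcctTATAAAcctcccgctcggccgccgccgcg
Counted from 1 at the 5′ end, the Cebpa window held TTGCG at position 66 and TATAAA at position 221. The Cebpb window held TGACG at positions 198 and 244 and, on the other strand, at position 71, and TATAAA at position 272. Relative to the annotated start, TATAAA lay at -30 in Cebpa and at 21, after the start, in Cebpb. TTGCG stood in 17.4%, TGACG in 20.8% and TATAAA in 13.6% of the 32851 start regions of the same length. The Cebpg window had none of these 3, and held CCAAT, found in 37.4% of start regions, on the other strand at positions 162 and 223. None of the 3 windows held the whole palindromes TTGCGCAA or TGACGTCA, which contain the first 2 cores and stood in 0.183% and 1.79% of start regions. The forms TTCNNNGAA of the STAT site and TGANTCA of the AP-1 site were also searched on both strands and were not in these 3 windows, against 8.3% and 7.81% of all start regions. GC content was 67.3% for Cebpa, 80.7% for Cebpb and 71.7% for Cebpg, with a median of 52.7% over all start regions.

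Depth ran from 34875736 to 49128378 counts per library. Both groups had 1 unlike library, that numbered 3. Neutrophil markers took 6.00% of counts in DEK replicate 3 and 6.70% in vehicle replicate 3, against 0.692 to 0.912% in the other DEK libraries and 0.721 to 0.745% in the other vehicle libraries. Counting error of these shares (Wilson 95% interval) was within 0.0083 percentage points, and this covers counting error only. In vehicle replicate 1, 4.89% of counts were of the ribosomal precursor Rn45s, which stayed at or below 0.331% elsewhere. Markers of stem and progenitor cells summed to 637 to 943 CPM (counts scaled to a common library size by TMM, the per-library factor of edgeR) in the DEK libraries and 484 to 1004 CPM in the vehicle libraries. In bulk RNA, fewer cells of a type and less RNA per cell cannot be told apart, and this holds for every level given here.

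Cebpd encodes C/EBP delta, an acute-phase factor that cytokine signalling through STAT3 is known to induce. The gene is a single exon on chromosome 16, from 15887286 to 15889545 on the plus strand (mm10). It had 168, 222 and 167 CPM in DEK replicates 1, 2 and 3, against 112, 123 and 120 CPM in vehicle replicates 1, 2 and 3. The groups did not overlap, which held for 3.78% of tested genes in this direction. The mean was 186 ± 31.4 CPM in the DEK group and 119 ± 5.55 CPM in the vehicle group (SD, n = 3 each). DEK replicate 2 was the highest library, and the other 2 DEK libraries were nearly equal. The log2 fold change within pairs was 0.64 ± 0.10 (SE), with a 95% interval of 0.42 to 0.85 (adjusted p = 0.0107, edgeR's quasi-likelihood test with Benjamini-Hochberg adjustment), and Cebpd had the 44th smallest p of all genes tested. Of all genes, 0.869% were called higher in that fit. Without pairing the log2 fold change was 0.65 ± 0.15 (adjusted p = 0.965, edgeR).

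The rise of Cebpd did not rest on the libraries numbered 3, and was called without them and without pairing, at a log2 difference of 0.73 (edgeR, adjusted p = 0.0305; 0.673% of genes were called higher there). Leaving out the libraries numbered 2 gave 0.54 within pairs and ended the call (adjusted p = 0.486, edgeR), as it did for every gene (0.0% called).

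**Figure D1:**
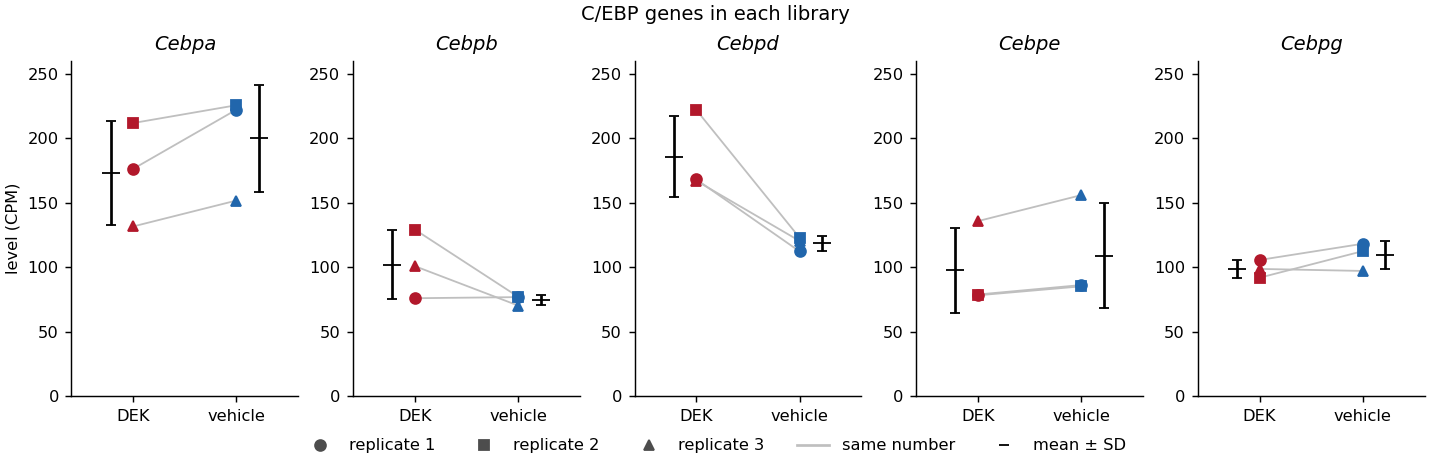
Level of each C/EBP gene in CPM in the DEK libraries (red, left) and the vehicle libraries (blue, right), with 1 symbol per replicate number, grey lines joining equal numbers, and bars for the mean ± SD of 3 libraries. The 3 DEK libraries of Cebpd lie between 167 and 222 CPM, above all vehicle libraries, and the triangles of Cebpa and Cebpe, replicate 3, stand apart in both groups.

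The value for Cebpd is uncertain in size because its 3′ end meets that of Spidr, a gene of DNA repair on the opposite strand. The last exon of Spidr in the table covers 321 of the 2260 bases of Cebpd, or 14.2%. Counting ignored strand and left out reads that fell in exons of more than 1 gene, so reads of this stretch were counted for neither. The GENCODE M21 annotation, on the same build, ends Cebpd 1486 bases further on, at 15891031. Of these, 240 bases lie in the Spidr exon, where any Cebpd reads were counted for Spidr, and 1246 bases lie in no exon of the table. Spidr itself had 78.4, 73.9 and 81.9 CPM in DEK replicates 1, 2 and 3, against 63.3, 67.6 and 83.3 CPM in vehicle replicates 1, 2 and 3. The Spidr groups overlapped, and its log2 fold change within pairs was 0.14 ± 0.10 (adjusted p = 0.642, edgeR). Without strand, other antisense reads within Cebpd cannot be told apart from its own.

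**Figure D2:**
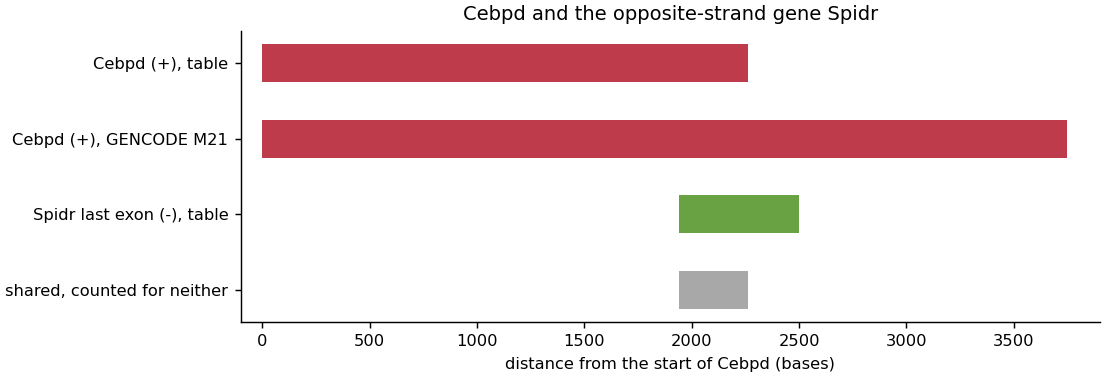
Exons of Cebpd (red) and the last exon of Spidr (green, opposite strand) against the distance in bases from the start of Cebpd, with the stretch counted for neither gene in grey. The grey stretch covers 321 of the 2260 bases that the table gives Cebpd, and GENCODE M21 extends the gene by 1486 bases.

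Cebpb encodes C/EBP beta, which is needed for granulocyte formation under infection and which induces many inflammatory genes in macrophages. Its single exon lies on chromosome 2, from 167688915 to 167690432 on the plus strand. It had 76.0, 129 and 101 CPM in DEK replicates 1, 2 and 3, against 76.8, 77.1 and 70.3 CPM in vehicle replicates 1, 2 and 3. DEK replicate 1 lay within the range of the vehicle libraries, and DEK replicates 2 and 3 lay above it. The vehicle libraries were close to each other, at 74.8 ± 3.86 CPM, and the DEK libraries spread widely, at 102 ± 26.7 CPM (SD, n = 3 each). The log2 fold change within pairs was 0.42 ± 0.14, with a 95% interval, not adjusted for the number of genes, of 0.10 to 0.74 (adjusted p = 0.281, edgeR), and without pairing it was 0.45 ± 0.20. Without the libraries numbered 1, Cebpb passed within pairs at a log2 difference of 0.63 (edgeR, adjusted p = 0.0305). In that fit 1.03% of genes were called higher. Number 1 was the only number in which Cebpb was not higher with DEK. Without the libraries numbered 2, the log2 difference of Cebpb was 0.26 and did not pass (edgeR within pairs, adjusted p = 0.997), and 0.0% of genes were called. GENCODE M21 places 312 bases of an exon of Tmem189, on the other strand, within Cebpb. The table has no such exon there, so reads of it, if present, were counted for Cebpb.

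Cebpa encodes C/EBP alpha, without which granulocytes do not form. It is a single block of exon on chromosome 7, from 35119293 to 35121931 on the plus strand. It had 176, 212 and 132 CPM in DEK replicates 1, 2 and 3, against 222, 226 and 152 CPM in vehicle replicates 1, 2 and 3. Each DEK library lay below the vehicle library of its number, which held for 17.9% of tested genes, and the groups overlapped. The mean was 173 ± 40.2 CPM with DEK and 199.96 ± 41.8 CPM with vehicle (SD, n = 3 each). The log2 fold change within pairs was -0.21 ± 0.09, with an unadjusted 95% interval of -0.41 to -0.0063 (adjusted p = 0.419, edgeR). Without pairing the interval was -0.76 to 0.35. GENCODE M21 places 51 bases of an exon of Gm45091, on the other strand, within Cebpa.

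Cebpe encodes C/EBP epsilon, the factor of the secondary granules of neutrophils and of eosinophil maturation. Its 2 exons span 54710363 to 54712174 on the minus strand of chromosome 14. It had 78.8, 78.2 and 136 CPM in DEK replicates 1, 2 and 3, against 86.2, 85.2 and 156 CPM in vehicle replicates 1, 2 and 3. Replicate 3 was far above the others in both groups, and within each number the DEK library was the lower, as for 17.9% of tested genes. The log2 fold change within pairs was -0.15 ± 0.09, with a 95% interval of -0.35 to 0.05 (adjusted p = 0.574, edgeR).

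Cebpg encodes C/EBP gamma, a partner of ATF4 in the response to amino acid shortage. Its 2 exons span 35046422 to 35056566 on the minus strand of chromosome 7, close to Cebpa. GENCODE M21 gives Cebpg 919 exon bases that are outside these 2 exons, and places 4 bases of Gm45095, on the other strand, within them. Cebpg had 106, 91.9 and 98.7 CPM in DEK replicates 1, 2 and 3, against 118, 112 and 97.1 CPM in vehicle replicates 1, 2 and 3. The groups overlapped in replicate 3 alone of the vehicle libraries. The log2 fold change within pairs was -0.14 ± 0.10, with a 95% interval of -0.36 to 0.07 (adjusted p = 0.623, edgeR).

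**Figure D3:**
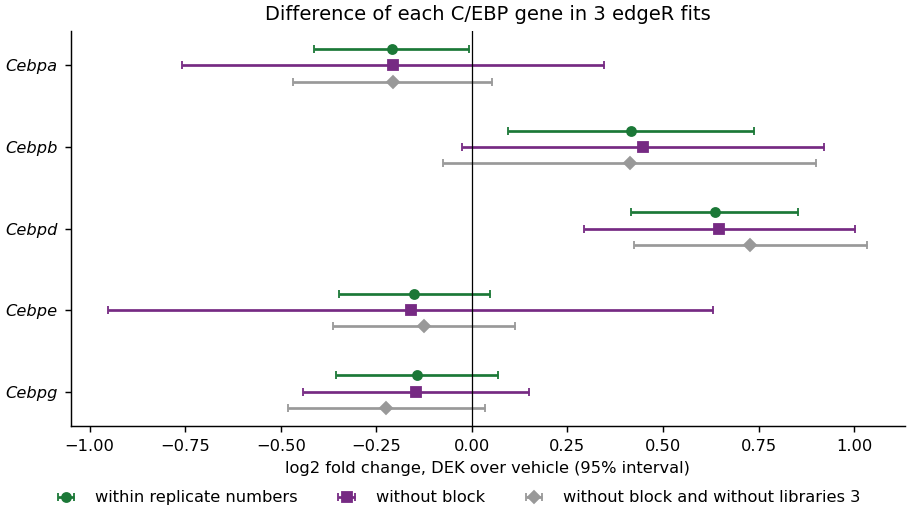
Log2 fold change of each C/EBP gene, DEK over vehicle, with its 95% interval not adjusted for the number of genes, within replicate numbers (green), without block (purple) and without block and without the libraries numbered 3 (grey). The Cebpd interval lies above 0 in all 3 fits, and the purple interval of Cebpe is -0.95 to 0.63.

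Cebpe was high and Cebpa low in the libraries numbered 3 of both groups. Cebpe in replicate 3 was 1.73 times the mean of replicates 1 and 2 in the DEK group and 1.82 times that mean in the vehicle group. Cebpa in replicate 3 was 0.678 times that mean in the DEK group and 0.677 times it in the vehicle group. Cebpb, Cebpd and Cebpg in replicate 3 lay between 0.857 and 1.00 times the mean in the DEK group and between 0.842 and 1.02 times it in the vehicle group. Replicate 3 was the highest library of both groups for 31.5% of tested genes and the lowest of both for 32.8%. The 15 neutrophil markers in the table summed to 66807 CPM in DEK replicate 3 and 69565 CPM in vehicle replicate 3, against at most 8653 CPM in the other DEK libraries and at most 7388 CPM in the other vehicle libraries. Their part in the levels of Cebpe and Cebpa was not tested.

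To compare the members with each other, levels were divided by the length of exon that could be counted (RPKM, the CPM per kilobase). In the DEK group the order of means was Cebpd at 95.8, Cebpe at 78.9, Cebpb at 67.2, Cebpa at 65.7 and Cebpg at 20.999 RPKM. Only Cebpg was separate there, since the ranges of all other neighbours in that order overlapped. In the vehicle group the order of means was Cebpe at 88.1, Cebpa at 75.8, Cebpd at 61.1, Cebpb at 49.3 and Cebpg at 23.2 RPKM. Cebpe lay above Cebpa in 1 of 3 vehicle libraries, replicate 3, and Cebpa was the highest member in vehicle replicates 1 and 2. Here Cebpb lay below Cebpd, and Cebpg below Cebpb, in 3 of 3 libraries without overlap of ranges, while Cebpe, Cebpa and Cebpd overlapped. Cebpd held 29.9, 31.6 and 25.9% of the summed RPKM of the family in DEK replicates 1, 2 and 3, against 20.1, 21.7 and 19.9% in vehicle replicates 1, 2 and 3. Cebpa held 23.1, 22.1 and 15.0% in DEK replicates 1, 2 and 3, against 29.3, 29.2 and 18.4% in vehicle replicates 1, 2 and 3. The sum over the family was 290, 363 and 333 RPKM in DEK replicates 1, 2 and 3, against 288, 292 and 313 RPKM in vehicle replicates 1, 2 and 3, so the groups overlapped in DEK replicate 1.

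Ratios of counts within a library do not depend on how libraries are scaled to each other. Cebpd had 0.953, 1.05 and 1.27 reads per read of Cebpa in DEK replicates 1, 2 and 3, against 0.505, 0.545 and 0.793 in vehicle replicates 1, 2 and 3. All 3 DEK libraries lay above all 3 vehicle libraries. The log2 ratio averaged 0.11 ± 0.21 with DEK and -0.73 ± 0.35 with vehicle (SD, n = 3 each), a 1.80-fold difference (exact two-sided permutation p = 0.1, the smallest that 3 libraries against 3 can give; adjusted p = 0.333 over 5 ratios). Cebpb had 0.431, 0.610 and 0.766 reads per read of Cebpa in DEK replicates 1, 2 and 3, against 0.346, 0.342 and 0.463 in vehicle replicates 1, 2 and 3. The DEK library was higher in 3 of 3 numbers, by 1.54-fold on average, and the groups overlapped in DEK replicate 1 (exact permutation p = 0.2, adjusted p = 0.333). Cebpd relative to Cebpb was 1.16-fold higher on average (exact permutation p = 0.2, adjusted p = 0.333). The ratios of Cebpe and Cebpg to Cebpa had mean differences of 0.06 and 0.07 on the log2 scale (exact permutation p = 0.9 for each, adjusted p = 0.9). For Cebpe the ratio to Cebpa was 1.03 in replicate 3 of either group, against 0.447 and 0.369 in the other DEK libraries and 0.388 and 0.377 in the other vehicle libraries.

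**Figure D4:**
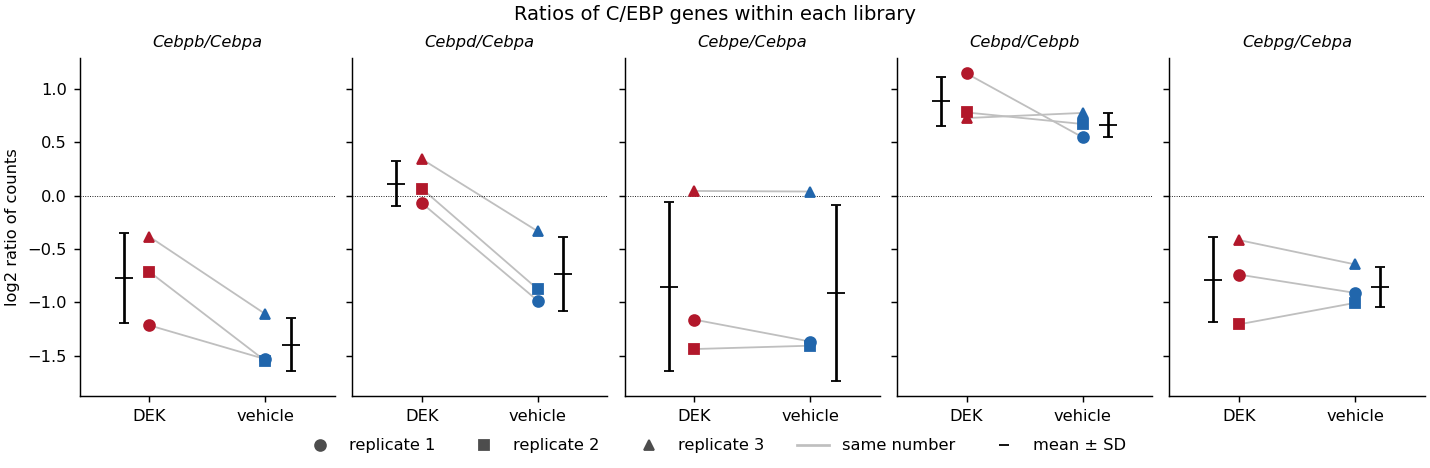
Log2 ratio of counts between C/EBP genes within each library, DEK on the left and vehicle on the right, with grey lines joining equal replicate numbers and bars for the mean ± SD of 3 libraries. The Cebpd to Cebpa ratio is higher in each DEK library, 0.953 to 1.27 reads per read, than in each vehicle library, 0.505 to 0.793.

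Of the genes that act upstream of the family, 2 of 18 rose within pairs and 0 fell, with a median log2 fold change of 0.23, against -0.0028 over all genes tested, of which 0.869% were called higher. They were Il1b, the gene of interleukin 1 beta, and Myd88, the adaptor of interleukin 1 and Toll-like receptors. Il1b and Tnf are also in the inflammatory list below, and Csf2ra, Csf3r and Il6ra are also in the early granulopoiesis list. Myd88 had 163, 208 and 235 CPM in DEK replicates 1, 2 and 3, against 129, 142 and 174 CPM in vehicle replicates 1, 2 and 3, and rose 1.35-fold (adjusted p = 0.0418, edgeR within pairs). Each of its DEK libraries was above the vehicle library of its number, which held for 16.3% of tested genes, and the groups overlapped. The call ended without the libraries numbered 1 (edgeR, adjusted p = 0.106). In limma-voom within pairs Myd88 did not pass (adjusted p = 0.0557), and in DESeq2 within pairs it did (adjusted p = 0.00513). These fits within pairs were chosen after the data were seen, and called 171 genes in limma-voom and 344 in DESeq2, against 177 in edgeR. Socs3, a feedback inhibitor that STAT3 induces, had 30.4, 52.6 and 122 CPM in DEK replicates 1, 2 and 3, against 23.4, 21.7 and 55.2 CPM in vehicle replicates 1, 2 and 3 (adjusted p = 0.089, edgeR within pairs). For Tnf the log2 difference was 1.46 ± 0.27 (edgeR within pairs, adjusted p = 0.148). Neither passed in that fit. Both passed within pairs in DESeq2 (adjusted p = 6.32e-06 for Socs3 and 1.51e-10 for Tnf) and in limma-voom (adjusted p = 0.025 and 0.0115). In edgeR within pairs, Socs3 and Tnf passed with library totals only, and did not with DESeq2 size factors or with no filter.

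Of 15 basic leucine zipper genes whose products can pair with C/EBP proteins or resemble them, 1 fell and 0 rose within pairs, with a median of 0.13, and 0.413% of all genes were called lower. Junb had 178, 251 and 370 CPM in DEK replicates 1, 2 and 3, against 138, 135 and 161 CPM in vehicle replicates 1, 2 and 3. Its groups did not overlap, which held for 3.78% of tested genes in this direction. Junb did not pass (adjusted p = 0.0624, edgeR within pairs), though it did in DESeq2 and limma-voom within pairs (adjusted p = 8.74e-06 and 0.0279). Atf5 did not pass at a log2 difference of -0.59 ± 0.13 (edgeR, adjusted p = 0.0625 within pairs), and its count is uncertain, as Nup62 shares exon bases with it on the opposite strand. In DESeq2 within pairs Atf5 passed (adjusted p = 0.0191), and in limma-voom within pairs it did not (adjusted p = 0.0845). Of 19 tested genes for cofactors and antagonists of C/EBP proteins, 0 passed in either direction within pairs, with a median of 0.05. The smallest p were those of Trib1, whose product directs C/EBP alpha to degradation, at a log2 difference of 0.36 ± 0.12 (edgeR, adjusted p = 0.207), and of Fli1 at -0.25 ± 0.09 (adjusted p = 0.29, edgeR).

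Of 19 tested inflammatory genes known as targets of C/EBP beta and C/EBP delta, 7 rose, 0 fell and 12 did not pass within pairs, with a median of 0.81, against 0.869% of all genes called higher and a median of -0.0028. In the fit without pairing 0 of these 19 passed. This list, like the others, was chosen with earlier results of these data known, so its count is no independent test. Many of these genes are also targets of NF-kB, so the list is not specific to C/EBP proteins. Without the libraries numbered 2 no gene of any list was called, as over the whole table. Clec4e, the gene of the lectin receptor Mincle, had 350, 400 and 452 CPM in DEK replicates 1, 2 and 3, against 163, 125 and 185 CPM in vehicle replicates 1, 2 and 3, without overlap (adjusted p = 0.000618, edgeR within pairs). Hp, the gene of the acute-phase protein haptoglobin, had 1211, 1821 and 1736 CPM in DEK replicates 1, 2 and 3, against 739, 757 and 1050 CPM in vehicle replicates 1, 2 and 3. It rose 1.87-fold without overlap (adjusted p = 0.00739, edgeR within pairs). Groups without overlap in this direction, as for Clec4e and Hp, were seen in 3.78% of tested genes. Il1b had 110, 141 and 700 CPM in DEK replicates 1, 2 and 3, against 37.6, 26.9 and 177 CPM in vehicle replicates 1, 2 and 3, and was highest in replicate 3 of each group. It rose 3.92-fold within pairs (edgeR, adjusted p = 0.00293). Without pairing its log2 difference was 1.98, and leaving out DEK replicate 3 or vehicle replicate 3 gave 0.63 or 3.30. Lcn2, which encodes the iron-scavenging protein lipocalin 2 of neutrophil granules, rose 1.58-fold within pairs (adjusted p = 0.0206, edgeR), a call that ended without the libraries numbered 1 (edgeR, adjusted p = 0.144). Without pairing its log2 difference was 0.43 and turned to -1.20 without DEK replicate 3, to -0.03 without vehicle replicate 1 and to -0.04 without vehicle replicate 2. Its libraries numbered 3 had 2889 CPM with DEK and 2289 CPM with vehicle, against 396 and 405 CPM in the other DEK libraries and 236 and 219 CPM in the other vehicle libraries. Cxcl2 and Cd14 did not pass (adjusted p = 0.0608 and 0.101, edgeR within pairs), though both did in DESeq2 within pairs (adjusted p = 0.0426 and 0.00024). In limma-voom within pairs Cd14 passed (adjusted p = 0.0489) and Cxcl2 did not (adjusted p = 0.0937). Il6, the first target from which C/EBP beta took its name NF-IL6, had 9.20, 6.47 and 5.72 CPM in DEK replicates 1, 2 and 3, against 8.78, 10.6 and 6.97 CPM in vehicle replicates 1, 2 and 3, overlapped between groups and did not pass (adjusted p = 0.546, edgeR within pairs).

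Of 16 early granulopoiesis genes known as targets of C/EBP alpha, Cebpe itself among them, 1 rose and 0 fell within pairs, with a median of 0.06. Over the whole table, 0.869% of genes were called higher. The gene that rose was Hp, which the inflammatory list also holds. Csf3r, the gene of the G-CSF receptor, had 257, 272 and 1079 CPM in DEK replicates 1, 2 and 3, against 273, 262 and 1003 CPM in vehicle replicates 1, 2 and 3. The 2 groups were nearly alike within each number, at a log2 difference of 0.02 ± 0.10 within pairs (edgeR, adjusted p = 0.957). Mpo, the gene of myeloperoxidase, had 5929, 5875 and 3673 CPM in DEK replicates 1, 2 and 3, against 5915, 5220 and 4875 CPM in vehicle replicates 1, 2 and 3 (adjusted p = 0.871, edgeR within pairs). Elane, the gene of neutrophil elastase, averaged 1294 ± 227 CPM with DEK and 1275 ± 85.3 CPM with vehicle (SD, n = 3 each), and edgeR within pairs gave an adjusted p = 0.989. Csf1r and Cd14 did not pass, with log2 differences of 0.39 ± 0.11 and 0.77 ± 0.16 (edgeR within pairs, adjusted p = 0.126 and 0.101). Both passed in DESeq2 within pairs (adjusted p = 0.0251 for Csf1r). In limma-voom within pairs Cd14 passed (adjusted p = 0.0489) and Csf1r did not (adjusted p = 0.124).

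Of 16 late granule genes known as targets of C/EBP epsilon, 1 rose and 0 fell within pairs, with a median of 0.05. The gene that rose was Lcn2, and 0.869% of all genes were called higher. Ltf, the gene of lactoferrin, had 231, 172 and 4002 CPM in DEK replicates 1, 2 and 3, against 155, 133 and 3649 CPM in vehicle replicates 1, 2 and 3. It followed the replicate number, with both libraries numbered 3 far above the rest, and did not pass (adjusted p = 0.193, edgeR within pairs). Camp and Cybb did not pass either, with log2 differences of 0.14 ± 0.11 and 0.30 ± 0.11 (edgeR within pairs, adjusted p = 0.668 and 0.274). The list shares 10 of its genes with the neutrophil markers.

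**Figure D5:**
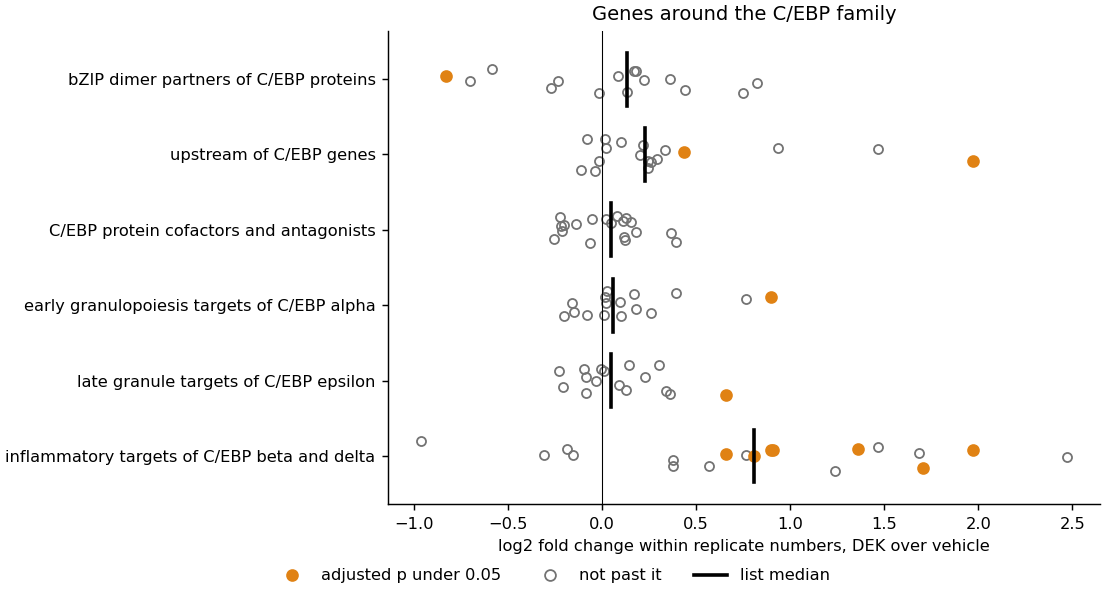
Log2 fold change within replicate numbers, DEK over vehicle, of the tested genes in 6 lists around the C/EBP family, with 1 circle per gene, filled where the adjusted p is under 0.05, and a bar at each list median. The inflammatory targets have 7 filled circles and a median of 0.81, and the other medians lie between 0.05 and 0.23.

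Markers of 4 cell types stand beside these results as follows, where 0.869% of all genes were called higher and 0.413% lower within pairs. The summed level of each list overlapped between the groups when replicate numbers were ignored, and no marker passed in the fit without pairing. Within each number, the monocyte sum was higher with DEK, and the macrophage and eosinophil sums were lower. The neutrophil sum was higher with DEK in number 1 and lower in numbers 2 and 3. Within pairs, log2 differences lay above 0 for 7 of 12 monocyte, 11 of 15 neutrophil, 2 of 12 macrophage and 0 of 10 eosinophil markers. Monocyte markers summed to 7547 to 10952 CPM in the DEK libraries and 6864 to 9174 CPM in the vehicle libraries, and 2 of 12 rose and 1 fell within pairs. Neutrophil markers summed to 6698 to 66807 CPM with DEK and 6862 to 69565 CPM with vehicle. Of these markers 2 of 15 rose, Lcn2 among them, and 0 fell. Macrophage markers summed to 835 to 1095 CPM with DEK and 951 to 1316 CPM with vehicle, and 3 of 12 fell and 0 rose. Eosinophil markers summed to 3634 to 11492 CPM with DEK and 5023 to 14720 CPM with vehicle, and 2 of 10 fell and 0 rose. No gene of these 4 lists was at 0 in all libraries, and Ly6g had no row. Their part in the values of Cebpd, Cebpb and the inflammatory targets was not tested.

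Other genes whose levels followed a member most closely were sought among 9130 genes averaging 10 CPM or more, by Pearson's r of log2 CPM over the 6 libraries, which share their group and replicate number. With 6 points among so many genes a high r is common, and no p is given. Nearest to Cebpd were Wdr53 and Ccdc94 with r of 0.986 each and Nfkbib, which encodes an inhibitor of NF-kB, with r of 0.983. Nfkbib had 45.0, 65.6 and 50.04 CPM in DEK replicates 1, 2 and 3, against 34.3, 34.8 and 33.8 CPM in vehicle replicates 1, 2 and 3. Nearest to Cebpb were Flna, the gene of the actin crosslinker filamin A, at 0.997, Akt1s1 at 0.996 and Trabd at 0.995. These 3 had DEK replicate 2 highest and DEK replicate 3 second, as Cebpb did. Nearest to Cebpe were Mgll, Pnisr and Clca3a1 at 0.999, 0.998 and 0.998, all high in the libraries numbered 3. Nearest to Cebpa were Tusc1, Abhd14b and Ctu1 at 0.994, 0.990 and 0.989, all low in those libraries. Nearest to Cebpg were Mdfic, Zfp655 and AI504432 at 0.994, 0.989 and 0.986. Among the members, r was 0.850 between Cebpb and Cebpd and -0.814 between Cebpa and Cebpe.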

How the data were processed

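The deposited values are read counts of genes. Per the file headers, the authors ran featureCounts 1.6.1 on exons of mm10 genes, with no option for strand, paired reads or overlapping genes, from 1 alignment per library of lane 6. The submitters' processing notes name Trim Galore, STAR, HTSeq and edgeR, and per the labels' protocols the library kit keeps strand. The exon length in bases that the same table gives is the authors' value.

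Software was DESeq2 1.42.0, limma 3.58.1 and edgeR 4.0.16 under R 4.3.3. Of 18049 genes with a read, 13803 passed filterByExpr. The main test was edgeR's quasi-likelihood test without block, with TMM scaling, robust dispersion and Benjamini-Hochberg adjustment over all genes at 0.05. Standard errors come from the F statistic, and log2 CPM used a prior count of 2. The main fit called 0 genes, with 360 at an unadjusted p under 0.05, while DESeq2 called 51 and limma-voom 0. The replicate number as a block called 177. Deviations from group means correlated by 0.55, 0.56 and 0.80 for equal numbers 1, 2 and 3, which met the rule of 0.1 for pairs. Unequal numbers 1 and 2 correlated by 0.41 and 0.52, so the rule rests mainly on number 3. The labels do not say what a number shares. Without block, p-values measure the spread between libraries of a group. Within pairs they measure the spread of the DEK to vehicle differences across numbers, with 2 residual degrees of freedom against 4 without block. Either spread may be technical. RPKM used TMM-scaled CPM and exon bases not shared with another gene.

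The fits were tested on simulated data. There, libraries of equal number were given shared means, so whether the pairing holds in these data was not tested. The members, the gene lists and the alternatives were chosen with earlier results of these data known. Named genes were the members, up to 4 called and 2 uncalled genes per list by smallest p within pairs with a mean of at least 1 CPM, the 3 genes most like each member, Spidr, and 6 targets that background names. A gene that this rule names is not reported here. Reads carry no molecular identifiers.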

Additional observations from a re-analysis of the deposited data

How the results depend on the processing

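Without the block, edgeR called 0 genes with DESeq2 size factors, library totals only or no filter, as did limma-voom, and DESeq2 called 51. Leaving out 1 library gave 0 to 1 genes. With the replicate block the count was 177, and 0 to 641 when 1 number was left out (181 without number 1). Chosen after the data were seen, the fit without both libraries numbered 3 and without block called 168, and the block with DESeq2 size factors, library totals only, no filter, DESeq2 or limma-voom gave 176, 368, 349, 344 and 171. Of the 93 tested genes of the 6 lists beside the members, 0 were called in the main fit, 2 by DESeq2, 9 with the replicate block, 0 to 20 with 1 number left out of it (10 without number 1), 7 without the libraries numbered 3, and 9, 15, 13, 17 and 12 under those last 5 settings in the same order.

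Cebpd stood at 0.65 in the main fit and 0.64 with the replicate block, where its range over left-out numbers was 0.54 to 0.72, with 0.66 without number 1, and its call ended without number 2. It was 0.73 without the libraries numbered 3 and 0.64, 0.62, 0.64, 0.64 and 0.64 under the 5 block settings, called in each. Cebpb ranged from 0.26 to 0.63 over left-out numbers and passed without number 1. Without block, leaving out 1 library gave -0.48 to 0.19 for Cebpe, which turned positive without vehicle replicate 3. For the ratios to Cebpa the same step gave -0.39 to 0.53 for Cebpe and -0.12 to 0.28 for Cebpg, and neither had a stable direction.

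Of the named genes other than the members, 6 turned direction when 1 library was left out without block. The range was -1.20 to 2.44 for Lcn2, -2.71 to 3.35 for Ltf, -0.96 to 1.00 for Csf3r, -1.61 to 1.86 for Camp, -0.16 to 0.14 for Mpo and -0.13 to 0.12 for Elane. With 1 number left out of the block it was -0.017 to 0.078 for Csf3r, -0.19 to 0.087 for Mpo and -0.15 to 0.17 for Elane. Camp was -0.048 with library totals only, Elane -0.011 with the block and library totals only, and without the libraries numbered 3 Csf3r was -0.017 and Mpo 0.085. Il1b kept its direction, from 0.63 without DEK replicate 3 to 3.30 without vehicle replicate 3. The causes were not tested.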
